A study of Mus musculus with 12 samples.

Results

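Interferon β (IFNβ) was compared with no interferon after 24 h of culture in mouse bone marrow monocytes, for the genes whose 24 h values could be set side by side. The authors deposited a table of 24 h against 12 h for the control cells, with 645 genes, and another for the IFNβ cells, with 602 genes, and 224 genes stand in both. These 224 genes, of 2038 in any of the tables with library values, are the ones described here. Each table lists only genes that the authors called changed with time, so all 224 had a change between 12 h and 24 h in both arms. Of the genes implied as tested, the control table lists 4.08% (3.12% higher at 24 h, 0.961% lower) and the table of the IFNβ arm 3.87% (2.16% higher, 1.72% lower). Of them 160 were higher at 24 h in both arms, 57 were lower in both, 6 were higher in controls and lower with IFNβ, and Arg1 was lower in controls and higher with IFNβ.

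Mouse bone marrow was the source of the monocytes, which were isolated by magnetic sorting. All groups were cultured in 20 ng/mL M-CSF, under which monocytes mature into macrophages. Control cells received M-CSF alone and the others M-CSF with 100 U of mouse IFNβ, and total RNA was taken at 12 h or 24 h, which makes 4 groups of 3 RNA sequencing libraries. The labels give no strain, sex or age, nor whether each replicate is another animal. The p-values therefore measure only how far these libraries scatter, and that scatter may be technical. The level of a gene below is the authors' normalized count in a library, brought to the scale of the 12 h IFNβ table by a factor of 0.889 for the control table and 1.11 for the IFNβ table. These factors are the median ratios of the 12 h libraries that the tables share, over 544 and 716 values. The total depth of a library is unknown, since the tables hold a part of it. Levels are given as mean ± SD (n = 3), and differences as IFNβ minus control after log2(normalized count + 1), ± the limma standard error, and this scale understates the change of low genes. In bulk RNA, fewer cells of a type and less RNA per cell cannot be told apart.

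Type I interferons bind a receptor made of IFNAR1 and IFNAR2. The receptor activates the kinases JAK1 and TYK2, and the signal reaches the interferon-stimulated response element in the promoters of antiviral genes. The response is fed back on by inhibitors such as USP18 and SOCS1, so that many of its early genes decline while interferon is still present. M-CSF acts on the same cells through CSF1R and, as monocytes mature, raises genes of phagocytosis, lipid handling and lysosomal digestion, while genes of the circulating monocyte decline. The genes compared here are those that changed between 12 h and 24 h in both arms, and the classical interferon genes are nearly absent from them. Of the interferon-stimulated list 1 of 103 genes was measured, and 0 of 25 genes of interferon signalling and 0 of 27 of MHC class I. Measured means here and below that a gene is among the 224, and genes outside them may still be expressed. Ifnar1 and Ifnar2 were in none of the tables with library values, and Ifnb1 stood in the 12 h IFNβ table and in the time table of the IFNβ arm only.

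Promoter sequences are shown for the genes called at 24 h whose promoter held the core of the response element, GAAA, then any 2 bases, then GAAA, on either strand. RefSeq promoters of the GRCm38.p6 build, 250 bases before to 50 bases after a start site, were found for 165 of the 224 genes. The promoters below belong to an Fc receptor gene and an antiviral family gene that were higher with IFNβ and to a selenium transport gene that was lower. They lie at chr1:171018676-171018975 on the plus strand for Fcgr4, chr19:34601919-34602218 on the minus strand for Ifit1bl1 and chr15:3270517-3270816 on the plus strand for Sepp1. Each is written 5′ to 3′ along its gene, and capitals mark the match.
Fcgr4: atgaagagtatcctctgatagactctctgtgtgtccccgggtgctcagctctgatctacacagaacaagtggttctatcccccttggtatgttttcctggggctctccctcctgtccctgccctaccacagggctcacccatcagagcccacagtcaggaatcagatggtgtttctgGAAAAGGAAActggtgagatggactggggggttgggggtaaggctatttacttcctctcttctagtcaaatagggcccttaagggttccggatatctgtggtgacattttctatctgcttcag
Ifit1bl1: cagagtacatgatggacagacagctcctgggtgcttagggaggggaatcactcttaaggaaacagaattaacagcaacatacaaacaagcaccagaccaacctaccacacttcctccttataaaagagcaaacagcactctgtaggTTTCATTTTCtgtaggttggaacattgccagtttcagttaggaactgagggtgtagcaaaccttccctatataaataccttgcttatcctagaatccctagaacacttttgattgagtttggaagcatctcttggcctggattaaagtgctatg
Sepp1: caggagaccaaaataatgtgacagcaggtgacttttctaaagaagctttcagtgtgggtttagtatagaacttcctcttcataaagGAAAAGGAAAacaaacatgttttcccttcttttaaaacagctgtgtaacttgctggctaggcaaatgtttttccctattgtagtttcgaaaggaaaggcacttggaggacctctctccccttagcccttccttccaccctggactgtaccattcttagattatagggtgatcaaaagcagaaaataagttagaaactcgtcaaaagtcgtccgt
The match began 73 bases before the start site in Fcgr4, 104 bases before it in Ifit1bl1, where it lies on the opposite strand, and 164 bases before it in Sepp1. Among genes with a promoter in the table, 2 of 37 that were higher with IFNβ at 24 h held the motif (5.41%), 1 of 41 that were lower (2.44%) and 1 of 87 that did not pass the test (1.15%). Over all 27025 genes of the promoter table the share was 3.99%. A STAT site, TTCNNNGAA with N for any base, was also searched for. It was held by 2 of the 37 higher genes (5.41%), 1 of the 41 lower (2.44%) and 6 of the 87 others (6.90%). Its share over all 27025 genes was 9.55%. A match is a description of letters and shows no binding.

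At 24 h IFNβ left a broad mark on these genes. Ifit1bl1, the vascular growth factor receptor Flt1, the arginase gene Arg1 and the Fc receptor Fcgr4 rose. Fibronectin (Fn1), apolipoprotein E (Apoe), the fatty acid binding protein Fabp4 and the macrophage elastase Mmp12 fell. Limma was fitted on the 6 libraries without a replicate block, with Benjamini-Hochberg adjustment over the 224 genes. In this fit 108 passed an adjusted p of 0.05 (48.2% of those tested). Of these 50 were higher with IFNβ (22.3%) and 58 lower (25.9%), and 85 differed by at least 1 on the log2 scale. The 3 IFNβ libraries and the 3 control libraries did not overlap for 130 genes (58.0%), 105 of which also passed the test. The median difference over all 224 genes was -0.29.

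The split into higher and lower depends on the rescaling, which changed the ratio of IFNβ to control values by 0.33 on the log2 scale, and differences of low genes by less because of the added 1. Without it 35 genes were higher and 95 lower, and with each 24 h library centred on its own median 56 were higher and 43 lower. With the replicate number as a block 146 genes passed, 59 higher and 87 lower. The genes were listed for large and reproducible changes with time in these same 24 h libraries, and how this choice bears on their spread and p-values was not tested. When adjusted instead over 15822 genes, the number implied by the deposited p-values, 30 genes passed, 15 in each direction. Of the 224 genes, 100 overlap another annotated gene, and since no source gives a strand setting for counting, reads of overlapping or antisense genes cannot be told apart.

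**Figure D1:**
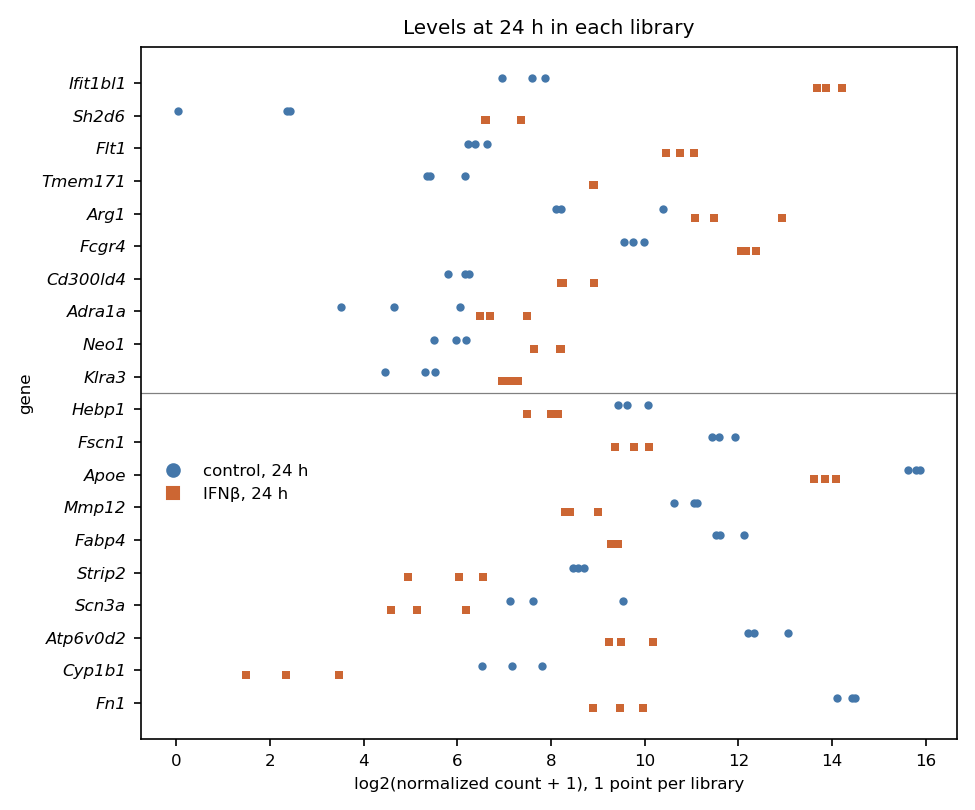
Normalized counts at 24 h on the log2(normalized count + 1) scale (x axis) for the 10 named genes with the largest rise (upper block) and the 10 with the largest fall (lower block), 1 point per library, blue circles for control and orange squares for IFNβ. In each of these genes the 3 control and the 3 IFNβ libraries are apart, by the most for Ifit1bl1 (6.44) and Fn1 (-4.88).

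The largest rise was in Ifit1bl1, a gene of the family whose products bind viral RNA. Its control libraries stood at 193, 233 and 123 normalized counts and its IFNβ libraries at 19006, 13098 and 14916. The difference was 6.44 ± 0.26 (limma, adjusted p = 1.48e-08), with no overlap. Its annotated span, chromosome 19, 34592888 to 34662981 in GRCm38, also holds Ifit1, Ifit1bl2 and Ifit3b, which are close in sequence, so reads of these interferon-induced neighbours may be counted with it. Flt1, the receptor for vascular endothelial growth factor that monocytes also carry (chromosome 5, 147561604 to 147726438), also rose. It stood at 97.9, 73.9 and 81.7 in controls and at 2108, 1399 and 1728 with IFNβ, a difference of 4.34 ± 0.24 (adjusted p = 1.68e-07).

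Among the other named genes with large rises were Tmem171, Sh2d6, Adra1a, Neo1 and Klra3. Tmem171, a membrane protein of little known function, stood at 41.9, 39.7 and 70.3 in controls and at 481, 481 and 477 with IFNβ, so that the IFNβ libraries were almost equal (3.27 ± 0.29, adjusted p = 1.14e-05). Sh2d6, an adaptor with an SH2 domain, stood at 4.38, 4.11 and 0.0283 in controls and at 163, 96.8 and 95.4 with IFNβ (5.24 ± 0.63, adjusted p = 9.33e-05). Its fold rests on controls of a few counts. The adrenergic receptor Adra1a (2.15 ± 0.58, adjusted p = 0.0115), the netrin receptor Neo1 (2.11 ± 0.31, adjusted p = 0.000284) and the inhibitory lectin receptor Klra3 (2.03 ± 0.36, adjusted p = 0.00103) followed. The controls of Adra1a were the most scattered of these, at 65.7, 24.2 and 10.4 against 179, 102 and 88.6 with IFNβ.

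Ddx4, Hap1 and Speg also rose by more than most, and lie in the lowest 25% of the genes by level, under a mean of 60.4, so they were outside the naming rule and are named after their values were seen. Ddx4, a helicase known from germ cells, was listed at 1.74, 0 and 5.50 in controls and at 109, 83.5 and 95.4 with IFNβ. Hap1, which encodes a binding partner of huntingtin, stood at 1.73, 5.76 and 4.63 against 89.8, 73.8 and 37.6. Speg, a kinase gene of muscle, stood at 5.25, 4.89 and 3.73 against 43.1, 52.7 and 51.1. In all of them the groups were far apart, and the size of the fold depends on control values of a few counts. In total 19 of the 56 genes in this lowest 25% were called, beside 48.2% of all 224 genes.

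Genes for receptors of phagocytosis and immunoglobulin were in part higher. Of 4 measured genes of the phagocytosis list, of 53, 2 were higher, 0 were lower and 2 did not pass. The median difference was 1.35 beside -0.29 over all 224 genes, of which 22.3% were higher and 25.9% lower. Fcgr4, an activating receptor for IgG, stood at 753, 1019 and 865 in controls and at 5283, 4598 and 4265 with IFNβ (2.43 ± 0.19, adjusted p = 4.83e-06; chromosome 1, 171018926 to 171029761). Its promoter, shown above, held the response element core. Folr2, a folate receptor of tissue macrophages, stood at 21.9, 7.09 and 20.4 against 80.2, 115 and 107 (2.67 ± 0.45, adjusted p = 0.000798). In both genes every IFNβ library lay above every control library.

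Mertk, a receptor for the uptake of apoptotic cells, stood at 851, 709.6 and 1116 in controls and at 1167, 864 and 1186 with IFNβ. The groups overlapped, and the difference was 0.28 ± 0.23 with a 95% interval from -0.24 to 0.79. Its sign turned to -0.05 without the rescaling. Fcrls, an Fc receptor-like gene of microglia and macrophages, stood at 72.5, 90.4 and 84.4 against 39.9, 41.4 and 85.1 (-0.65 ± 0.37, adjusted p = 0.169). It passed when IFNβ replicate 3 was left out (adjusted p = 0.0444). Among paired immune receptors outside the list, Cd300ld4 rose from 75.2, 54.4 and 70.5 to 484, 305 and 298 (2.40 ± 0.30, adjusted p = 0.000101). Its near relative Cd300ld5 was also higher (1.43 ± 0.38, adjusted p = 0.0115). Reads of this cluster may be shared between copies.

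The complement genes did not move as a group. Of 4 measured genes of the complement and opsonin list, of 25, 0 were higher, 1 was lower and 3 did not pass. The shares over all 224 genes were 22.3% higher and 25.9% lower. C1qa, C1qb and C1qc encode the chains of C1q, the recognition molecule of the classical pathway, and lie next to each other on chromosome 4 between 136880126 and 136898844. C1qa stood at 2454, 2271 and 4182 in controls and at 1688, 1992 and 2167 with IFNβ, a difference of -0.56 ± 0.25 (adjusted p = 0.0805, and 0.00129 with the replicate block). C1qb stood at 10816, 9083 and 16186 against 13813, 14818 and 15642, which overlap (0.34 ± 0.22, 95% interval -0.15 to 0.83, adjusted p = 0.231). C1qc stood at 4488, 3929 and 6880.5 against 7103, 6901 and 7856 (0.56 ± 0.22, adjusted p = 0.0575, and 0.00166 with the replicate block). Control replicate 3 was the highest control in each of the C1q genes, and without it C1qb and C1qc passed (adjusted p = 0.0334 and 0.00772), as they did with each 24 h library centred on its median. C1qa passed when control replicate 2 was left out (adjusted p = 0.0333). Mfge8, a secreted bridge between apoptotic cells and phagocytes, fell from 1295, 1486 and 1899 to 543, 689 and 698 (-1.27 ± 0.22, adjusted p = 0.000798).

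Genes of macrophage maturation went both ways. Of 7 measured genes of that list, of 48, 2 were higher, 3 were lower and 2 did not pass, with a median of -0.27. Over all 224 genes 22.3% were higher and 25.9% lower, with a median of -0.29. Arg1, which encodes the arginase of alternatively activated macrophages (chromosome 10, 24915207 to 24927470), was higher with IFNβ. Its control libraries stood at 294, 275 and 1334 and its IFNβ libraries at 2164, 2864 and 7783, a difference of 2.93 ± 0.59 (adjusted p = 0.00213). Replicate 3 was the highest of both groups, and leaving out 1 library at a time gave between 2.38 and 3.67. Ctsk, a cysteine protease of the lysosome, rose from 2705, 3110.4 and 3592 to 5010.5, 4539.9 and 5299.9 (0.67 ± 0.18, adjusted p = 0.012), and did not pass without the rescaling, without control replicate 1 or without IFNβ replicate 3.

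Mmp12, the macrophage elastase, stood at 1571, 2222 and 2136 in controls and fell to 314, 337 and 511 with IFNβ (-2.37 ± 0.25, adjusted p = 3.11e-05). Sepp1, the selenium transport protein, fell from 10472, 8922 and 11980.2 to 5644, 4276 and 4714 (-1.10 ± 0.19, adjusted p = 0.000829). Its gene overlaps Ccdc152. The transcription factor Bhlhe41 fell by less, from 2422, 1975 and 2263 to 1644, 1367 and 1669 (-0.51 ± 0.19, adjusted p = 0.0428). Gpnmb, a glycoprotein of phagocytic macrophages, had overlapping groups at 170779, 134098 and 166927 against 162095, 105719 and 127977 (-0.27 ± 0.22, 95% interval -0.74 to 0.21). The chemokine gene Ccl24 stood at 109, 88.0 and 579 in controls and at 102, 129 and 259 with IFNβ, a difference of -0.24 ± 0.63 whose sign turned to 0.61 without control replicate 3. The number of called genes in this list was 3 in place of 5 without control replicate 1 and without IFNβ replicate 3.

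**Figure D2:**
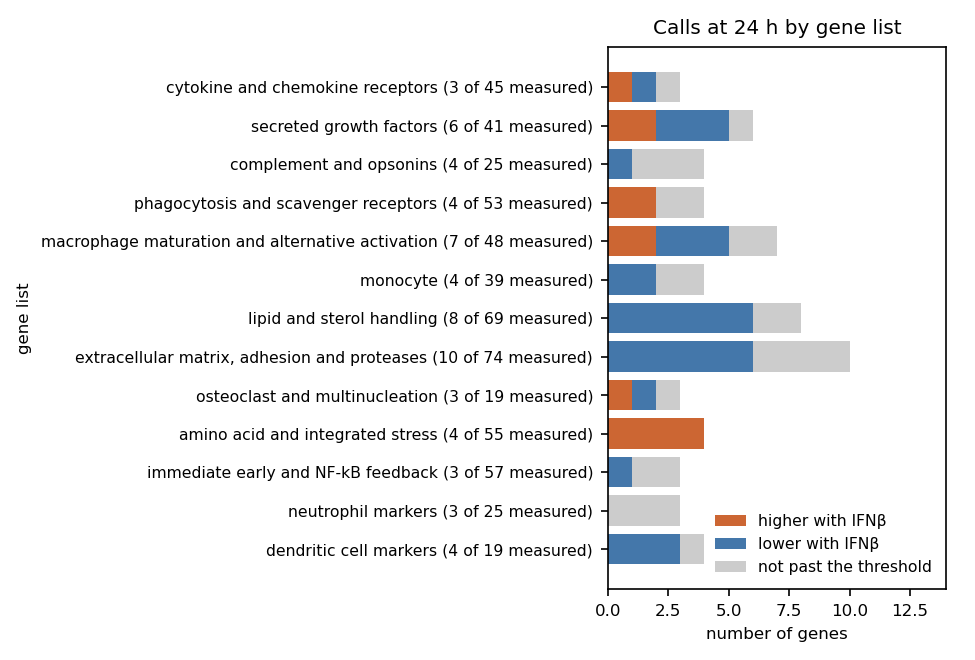
Number of genes (x axis) that were higher with IFNβ, lower or not past the threshold at 24 h in limma, for each gene list with at least 3 measured genes (y axis, with the number measured of the number in the list). Lipid handling (6 of 8) and extracellular matrix (6 of 10) hold only lower calls. So do dendritic cell markers (3 of 4), monocyte (2 of 4), complement (1 of 4) and immediate early genes (1 of 3). Amino acid and integrated stress (4 of 4) and phagocytosis (2 of 4) hold only higher ones. Over all 224 genes 22.3% were higher and 25.9% lower.

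Of 8 measured genes of the lipid and sterol list, of 69, 0 were higher, 6 were lower and 2 did not pass. Over all 224 genes 25.9% were lower, and the median of the list was -1.43 beside -0.29 over all genes. The count of 6 was the same with each library left out in turn and without the rescaling. Apoe, the main apolipoprotein that macrophages secrete (chromosome 7, 19696244 to 19701310), stood at 56867, 50639 and 60058 in controls and at 14666, 17240.4 and 12618 with IFNβ. The difference was -1.92 ± 0.19 (adjusted p = 2.04e-05), and the highest IFNβ library lay far below the lowest control.

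Fabp4 and Fabp5, fatty acid binding proteins whose genes lie near each other on chromosome 3, fell by different amounts. Fabp4 went from 2952, 3127 and 4474 to 620.3, 684 and 677 (-2.39 ± 0.21, adjusted p = 9.98e-06). Fabp5 went from 15609, 14627 and 18420.3 to 10441, 8934 and 10611 (-0.70 ± 0.18, adjusted p = 0.00878). Cyp1b1, a monooxygenase of steroid and fatty acid metabolism, was nearly lost, at 142, 91.6 and 222 in controls and 1.81, 4.06 and 10.2 with IFNβ (-4.73 ± 0.55, adjusted p = 8.35e-05). The lipid phosphatase Plpp3 fell from 969, 746 and 818 to 293, 229 and 336 (-1.57 ± 0.23, adjusted p = 0.000284), and the phospholipid transfer protein Pltp from 557, 557 and 607 to 243, 208 and 249.8 (-1.30 ± 0.22, adjusted p = 0.000704). The gene of Pltp overlaps Ctsa. The prostaglandin enzymes of the list did not pass: Ptgs2 differed by 0.45 ± 0.31 and Hpgds by 0.27 ± 0.20. Outside the list and named after their values were seen, the fatty acid transporter Slc27a1 (1.21 ± 0.18, adjusted p = 0.000275) and the sterol acyltransferase Soat2 (1.58 ± 0.27, adjusted p = 0.000728) rose.

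Of 10 measured genes of the extracellular matrix, adhesion and protease list, of 74, 0 were higher, 6 were lower and 4 did not pass, with a median of -0.89. Over all 224 genes 25.9% were lower. Fn1, which encodes fibronectin (chromosome 1, 71585473 to 71653280), stood at 22829.7, 17592 and 21875 in controls and at 714, 476 and 1003 with IFNβ. The difference was -4.88 ± 0.26 (adjusted p = 1.5e-07), the largest fall among the 224 genes. The proteoglycan gene Vcan fell from 30173, 18531 and 17760.0 to 11861, 4723 and 11174 (-1.33 ± 0.34, adjusted p = 0.00901). Cadm1, an adhesion molecule, fell from 888, 705 and 870.1 to 378, 337 and 407 (-1.13 ± 0.21, adjusted p = 0.00131), the follistatin-like gene Fstl1 from 131, 248 and 175 to 81.7, 32.5 and 85.1 (-1.53 ± 0.41, adjusted p = 0.0119), and the metalloprotease inhibitor Timp2 from 5576, 5513 and 6991 to 4371, 3529.7 and 3641 (-0.65 ± 0.18, adjusted p = 0.0146).

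Of the others in the matrix list, the integrin gene Itga6 was the most scattered, with 2161, 2381 and 2741 in controls and 5024, 1740.3 and 4596 with IFNβ. It did not pass (0.50 ± 0.35, adjusted p = 0.246) and did with the replicate block (adjusted p = 0.0129). Timp3, another inhibitor, behaved alike in this respect (-0.49 ± 0.51, adjusted p = 0.434, and 0.0488 with the block). Col4a1, a basement membrane collagen, was listed at most at 13.1 in any library and differed by -0.61 ± 0.46, and the protease gene Prss46 by 0.37 ± 0.31. The monocyte list shares Fn1 and Vcan with the matrix list, and of its 4 measured genes, of 39, 2 were lower and 2 did not pass. Over all 224 genes 25.9% were lower. Klf4, a transcription factor of monocytes, stood at 2344, 1823 and 2005 against 1829, 1279.9 and 1468 (-0.44 ± 0.20, adjusted p = 0.0931, and 0.00716 with the block). Ace, a marker of patrolling monocytes, overlapped between groups (0.43 ± 0.40, 95% interval -0.46 to 1.32).

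Of the osteoclast list, 3 of 19 genes were measured, and they split. The shares over all 224 genes were 22.3% higher and 25.9% lower. Atp6v0d2, a proton pump subunit of osteoclasts and giant cells (chromosome 4, 19876838 to 19922566), fell from 5186, 4745 and 8484 to 598, 723 and 1155 (-2.90 ± 0.29, adjusted p = 2.22e-05). Ctsk, described above, was higher. Car2, the carbonic anhydrase, stood at 212, 149.6 and 161 against 116, 178 and 127, which overlap (-0.32 ± 0.29, 95% interval -0.96 to 0.32).

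Secreted growth factors went both ways. Of 6 measured genes of the list, of 41, 2 were higher, 3 were lower and 1 did not pass, with a median of -0.70. Over all 224 genes 22.3% were higher and 25.9% lower, with a median of -0.29. Igf1, the insulin-like growth factor that macrophages secrete in repair (chromosome 10, 87858265 to 87937047), fell from 7281, 4836 and 7339 to 2252, 1348 and 2027 (-1.80 ± 0.25, adjusted p = 0.000191). Pdgfa, a mitogen of mesenchymal cells, fell from 1697, 1428 and 2062 to 654, 581 and 659.8 (-1.44 ± 0.20, adjusted p = 0.000245), and the stress cytokine Gdf15 from 2135, 1378 and 1877 to 1216, 1201 and 830.2 (-0.73 ± 0.23, adjusted p = 0.0251). The insulin-like growth factor binding protein Igfbp6 rose from 206, 145 and 177 to 549, 521 and 441 (1.52 ± 0.24, adjusted p = 0.000517). Npy, neuropeptide Y, rose from 70.8, 92.1 and 80.7 to 233, 265 and 170.4 (1.43 ± 0.29, adjusted p = 0.00213). Gas6, the ligand of the receptor that Mertk encodes, stood at 1304, 915 and 2318 against 924, 768 and 962 (-0.67 ± 0.30, adjusted p = 0.0856, and 0.000439 with the block).

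The 4 measured genes of the amino acid and integrated stress list, of 55, were all higher, with a median of 1.01. Over all 224 genes 22.3% were higher, with a median of -0.29. Without the rescaling 2 of the 4, Atf5 and Phgdh, did not pass. Trib3, a pseudokinase induced by amino acid shortage, stood at 262, 166 and 172 in controls and at 842, 662 and 827 with IFNβ (1.98 ± 0.25, adjusted p = 0.000125). Slc7a5, a transporter of large neutral amino acids, rose from 1790.3, 1155 and 1388 to 3671, 2874 and 3569 (1.24 ± 0.21, adjusted p = 0.000798). Phgdh, the first enzyme of serine synthesis, rose from 1943, 1628 and 1894 to 2859, 3664 and 2875 (0.78 ± 0.19, adjusted p = 0.00624). The transcription factor Atf5 rose from 1909, 1346 and 1788 to 3315, 2392 and 2501 (0.70 ± 0.21, adjusted p = 0.0192), overlaps Nup62, and also lost its call without IFNβ replicate 1, without control replicate 2 and with no variance trend in limma (adjusted p = 0.0544). All 4 genes were lower at 24 h than at 12 h in both arms, so their IFNβ difference stood on falling levels.

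Few genes of immediate early signalling, sensing and cell death were measured, and 0 genes of the MHC class II and of the glycolysis and hypoxia lists. Nr4a2, a nuclear receptor of the early response, fell from 155, 116 and 123 to 27.2, 40.9 and 54.5 (-1.71 ± 0.35, adjusted p = 0.00228). Dusp4, a phosphatase that ends MAP kinase signals, overlapped between groups (0.42 ± 0.37, adjusted p = 0.36, and 0.0436 with the block). The inflammasome sensor Naip1 stood at 73.4, 65.0 and 73.3 against 115, 98.1 and 152 (0.76 ± 0.30, adjusted p = 0.0578, 0.0283 with the block and 0.0388 without IFNβ replicate 2). The cytokine gene Il1b (-0.35 ± 0.32), the survival gene Bcl2a1a (0.45 ± 0.32) and the cell cycle inhibitor Cdkn1c (0.29 ± 0.30) did not pass, and the sign of Cdkn1c turned without the rescaling.

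Markers of other cell types were looked at beside these results. Of 19 dendritic cell markers 12 were listed in any comparison with library values. Of these 4 were measured, and 3 were lower. Over all 224 genes 22.3% were higher and 25.9% lower. Fscn1, the actin bundler of mature dendritic cells, fell from 3884, 2769.9 and 3086 to 658, 870.2 and 1095 (-1.91 ± 0.23, adjusted p = 9.33e-05). Ccr7, the lymph node homing receptor, fell from 2143, 1537 and 1685 to 754, 899 and 1140.1 (-0.95 ± 0.22, adjusted p = 0.00538), and the calcium channel subunit Cacnb3 from 1418, 1190.0 and 1342 to 338, 396 and 471 (-1.72 ± 0.21, adjusted p = 9.33e-05). Ccr9 overlapped between groups (-0.35 ± 0.26). Ccr7 and Ccr9 are also, with Flt1, the 3 measured genes of 45 in the cytokine and chemokine receptor list, of which 1 was higher, 1 lower and 1 did not pass. The summed level of the 4 was 5817 to 7708 in controls and 1922 to 2921 with IFNβ, which moves with the falls of the lipid and matrix genes, and its part in them was not tested.

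Markers of other lineages were sparse. Of 25 neutrophil markers the stefin genes Stfa2, Stfa2l1 and Stfa3, near copies of one another, were measured, with a summed level of 664 to 1336 in controls and 346 to 1001 with IFNβ, and 0 passed the limma test, also at an unadjusted p under 0.05. Stfa2l1 passed with the replicate block (-0.73 ± 0.37, adjusted p = 0.125, and 0.000325 with it) and without IFNβ replicate 2 (0.0388). Of 18 erythroid markers Slc4a1 and Ermap were measured, at a summed 43.1 to 269 in controls and 28.8 to 119 with IFNβ. In limma 0 of them passed and 1, Ermap, had an unadjusted p under 0.05, and both passed with the block (adjusted p = 0.0205 and 0.00419) and with 1 library left out, control replicate 3 for Slc4a1 and IFNβ replicate 1 for Ermap. Of 19 B cell markers Blnk and Jchain overlapped between groups, and 0 passed limma, also at an unadjusted p under 0.05. Of 11 mast cell markers 0 were measured. Cd4, a T helper cell receptor that some macrophages also carry, stood at 48.9, 49.7 and 49.2 against 95.2, 109 and 92.0 (0.99 ± 0.30, adjusted p = 0.0192), lost its call without the rescaling and without control replicate 1 or 2, and was the sole measured gene of 21 T and NK cell markers. Kitl, the stem cell factor gene, rose from 11.3, 17.1 and 23.1 to 72.7, 69.9 and 56.8 (1.94 ± 0.39, adjusted p = 0.00211) and was the sole measured gene of 18 stromal markers. The part of these cells in the other differences was not tested.

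Most of the 224 genes, 157, are in no list. Of these 36 were higher, 35 lower and 86 did not pass, with a median of -0.25. The shares over all genes were 22.3% higher and 25.9% lower. The largest falls outside the lists were in genes of low or moderate level. Scn3a, a sodium channel gene, stood at 195, 138 and 739.5 in controls and at 34.1, 23.1 and 71.4 with IFNβ, with control replicate 3 far above the others (-2.79 ± 0.60, adjusted p = 0.00293, and between -3.27 and -2.06 with 1 library left out). Strip2, a subunit of a phosphatase and kinase complex, fell from 414, 352 and 383 to 64.8, 29.9 and 93.0 (-2.73 ± 0.38, adjusted p = 0.000233), and the heme binding protein gene Hebp1 from 788, 686 and 1072 to 177, 283 and 255 (-1.83 ± 0.26, adjusted p = 0.000266). Anpep, an aminopeptidase of myeloid cells, did not pass and stood at 17712, 15348 and 20259 against 18072 to 23284 with IFNβ. Its difference of 0.26 ± 0.19, with a 95% interval from -0.15 to 0.68, turned to -0.06 without the rescaling and passed, at 0.48 (adjusted p = 0.0161), with each 24 h library centred on its median.

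The direction of the IFNβ difference could also be read against the course of each gene in time. Among the 160 genes that were higher at 24 h than at 12 h in both arms, 30 were higher with IFNβ, 48 lower and 82 did not pass. Among the 57 that were lower at 24 h in both arms, 16 were higher with IFNβ, 8 lower and 33 did not pass. The medians were -0.38 and -0.23, beside -0.29 over all 224 genes, of which 22.3% were higher and 25.9% lower. Apoe, Fabp4, Igf1 and Mmp12 belong to the first class, so they rose with time in both arms and stood lower with IFNβ. Fn1, Vcan and Cyp1b1 belong to the second class and were lower with IFNβ as well as with time, while Trib3, Slc7a5 and Flt1 fell with time and stood higher with IFNβ.

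**Figure D3:**
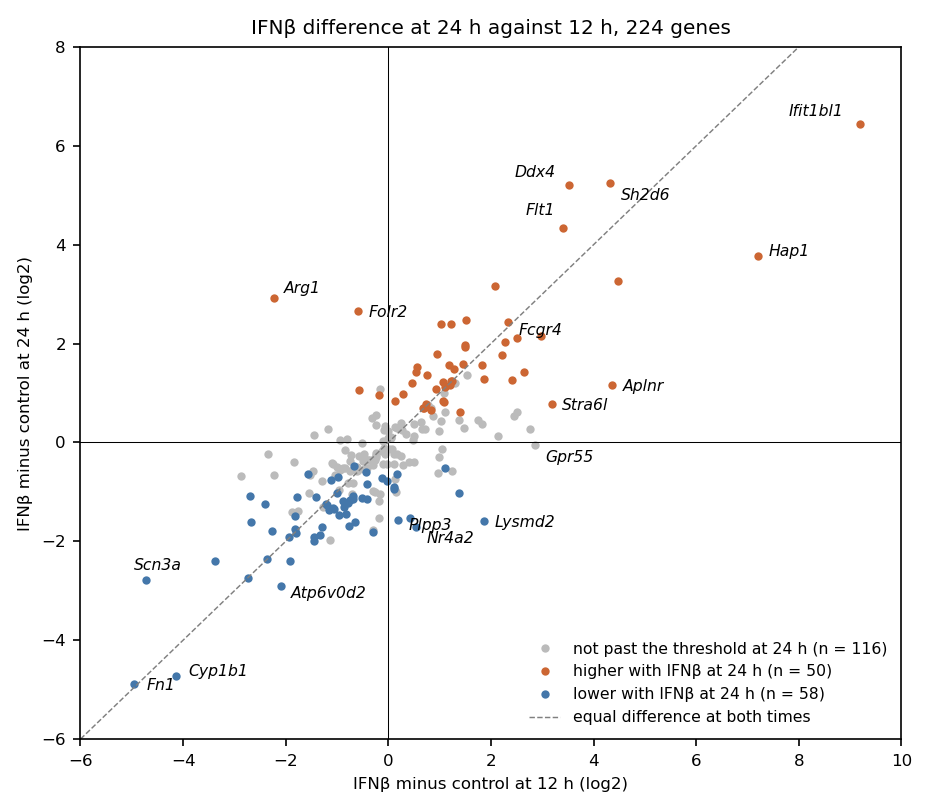
IFNβ minus control at 24 h (y axis) against the same difference at 12 h (x axis), both on the log2(normalized count + 1) scale, for the 224 genes, coloured by the limma call at 24 h. Most called genes lie at the upper right and the lower left, Arg1 (-2.23 at 12 h, 2.93 at 24 h) stands apart, and Hap1 has its place at 12 h from controls listed at 0.

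The 24 h difference was then set beside the 12 h difference of the same genes, which rests on other libraries. At 12 h limma called 92 of the 224 genes (41.1%), 48 higher (21.4%) and 44 lower (19.6%), with a median of -0.11. Of the genes called at both times 33 were higher at both, 30 lower at both and 2 opposite, Lysmd2 and Bhlhe41. A further 43 were called at 24 h only, 27 at 12 h only and 89 at neither. In the authors' deposited table of IFNβ at 12 h, which lists 8.86% of the genes tested (5.7% higher, 3.17% lower), 41 of the 224 stand as higher and 37 as lower. Of those 41 genes, 28 were higher at 24 h, 2 were lower and 11 did not pass (median 1.25). Of the 37, 26 were lower, 1 was higher, which was Arg1, and 10 did not pass (median -1.27). Of the 146 genes outside that table, 21 were higher at 24 h and 30 lower. These counts stand beside 22.3% higher and 25.9% lower at 24 h over all 224 genes.

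For some genes the difference was of like size at both times, though equality was not tested. Fn1 differed by -4.96 ± 0.25 at 12 h and -4.88 ± 0.26 at 24 h, Apoe by -1.93 ± 0.26 and -1.92 ± 0.19, Fcgr4 by 2.33 ± 0.25 and 2.43 ± 0.19, Mmp12 by -2.35 ± 0.43 and -2.37 ± 0.25, and Slc7a5 by 1.24 ± 0.24 and 1.24 ± 0.21. The levels themselves moved greatly meanwhile. Fn1 went from 126830.5 ± 15155 to 20766 ± 2789.7 in controls and from 4139 ± 988 to 731 ± 264 with IFNβ. Apoe went from 26676 ± 6242 to 55855 ± 4791 in controls and from 6943 ± 1242 to 14841 ± 2316 with IFNβ. Over the 12 libraries the change in the IFNβ difference was 0.08 ± 0.38 for Fn1 and 0.01 ± 0.32 for Apoe.

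The change of the IFNβ difference from 12 h to 24 h was tested as an interaction over all 12 libraries. It passed for 17 genes (7.59%), with the difference at 24 h above that at 12 h for 5 (2.23%) and below it for 12 (5.36%). With the replicate block 45 genes passed, 17 above and 28 below. Among them were Ccl24 (adjusted p = 0.00281), Ccr7 (0.0143), Atp6v0d2 (0.0366), Cd300ld4 (0.0322) and Bcl2a1a (0.0233), which did not pass without it. Adjusted over the implied number tested 3 genes passed, Aplnr, Ifit1bl1 and Stra6l. The 17 include all 7 genes listed in opposite directions with time in the arms, 6 of them below and Arg1 above. For these 7, Aplnr and Ifit1bl1 among them, the choice of genes fixes the sign of this value. Their interaction and its p-value are therefore a description. The other 10 moved the same way in both arms and by different amounts. They too were chosen for their change with time in these libraries, and how this bears on their p-values was not tested.

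Ifit1bl1, Aplnr, Stra6l and Gprc5b had smaller differences at 24 h. Ifit1bl1 differed by 9.19 ± 0.26 at 12 h and 6.44 ± 0.26 at 24 h, as the IFNβ level went from 38332 ± 7801 to 15673 ± 3026 and the control level from 65.1 ± 15.5 to 183 ± 55.9. The apelin receptor gene Aplnr went from 4.36 ± 0.31 to 1.17 ± 0.28, with IFNβ libraries at 775 ± 143 and then 189.5 ± 24.5. Stra6l, related to a retinol transporter, went from 3.18 ± 0.28 to 0.78 ± 0.19 (interaction -2.40 ± 0.29, adjusted p = 0.000106) as controls rose from 69.0 ± 5.78 to 925 ± 62.0. The orphan receptor Gprc5b went from 2.45 ± 0.37 to 0.53 ± 0.21 in the same way (interaction -1.92 ± 0.39, adjusted p = 0.00766). In each of these genes the control level was higher at 24 h than at 12 h.

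A second set passed from higher or level at 12 h to lower at 24 h. Plpp3 differed by 0.19 ± 0.41 at 12 h and -1.57 ± 0.23 at 24 h (interaction -1.76 ± 0.38, adjusted p = 0.00815), since controls went from 28.0 ± 3.90 to 844 ± 113 and IFNβ libraries from 32.1 ± 5.82 to 286 ± 53.9. Bhlhe41 went from 1.11 ± 0.35 to -0.51 ± 0.19 (interaction -1.62 ± 0.39, adjusted p = 0.0142). The inhibitory ligand gene Cd200 went from 1.25 ± 0.39 to -0.58 ± 0.25 (adjusted p = 0.0104), though the 24 h difference alone did not pass without the block (adjusted p = 0.0755, and 0.0122 with it). Gbgt1, a glycosyltransferase gene, went from 1.37 ± 0.55 to -1.03 ± 0.27 (adjusted p = 0.0182, and 0.0525 without control replicate 1 at 24 h). In each of these the control level rose with time by more than the IFNβ level.

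Folr2, Gas6, Rnase4, Timp2 and Arg1 moved toward IFNβ. Folr2 differed by -0.59 ± 0.55 at 12 h and 2.67 ± 0.45 at 24 h (interaction 3.25 ± 0.69, adjusted p = 0.00815). Gas6 differed by -2.87 ± 0.45 at 12 h, from 113 ± 42.8 in controls to 14.5 ± 5.46 with IFNβ, and by -0.67 ± 0.30 at 24 h (interaction 2.20 ± 0.52, adjusted p = 0.0142). Rnase4, a secreted ribonuclease, passed from -0.58 ± 0.35 to 1.06 ± 0.24 (interaction 1.63 ± 0.34, adjusted p = 0.00815), and Timp2 from -1.56 ± 0.22 to -0.65 ± 0.18 (interaction 0.92 ± 0.26, adjusted p = 0.0398). The gene of Rnase4 overlaps Ang. Arg1 was at 7605 ± 8249 in controls and 1352 ± 949.8 with IFNβ at 12 h, where controls varied widely (-2.23 ± 0.90, adjusted p = 0.0692), and at 635 ± 606 and 4270.2 ± 3062 at 24 h. The interaction of Arg1 was 5.16 ± 1.33 (adjusted p = 0.0226), with a sign that the choice of genes fixed. It lost its call without control replicate 2 or 3 or IFNβ replicate 1 at 12 h. The same held without control replicate 1 or 2 or IFNβ replicate 3 at 24 h (adjusted p up to 0.0659). The interaction call of Timp2 was lost without each of these libraries, IFNβ replicate 2 at 12 h or IFNβ replicate 1 at 24 h (up to 0.12). With no variance trend neither passed (adjusted p = 0.0614 for Arg1 and 0.0886 for Timp2).

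In a small table the authors deposited a fold change for 5 genes of IFNβ against control at 24 h, classical interferon genes among them, without library values or p-values. None of the 5 is among the 224 genes. The column names no scale, and is read here as log2 because the same genes have log2 values of like size in the authors' deposited 12 h table. In the authors' deposited tables the antiviral gene Ifit2 stands at 5.74 at 24 h and 7.002 at 12 h, the transcription factor Irf7 at 5.74 and 6.23, the ubiquitin-like modifier Isg15 at 5.57 and 6.27, the cytokine Il10 at 4.28 and 3.85 and Il6 at 3.01 and 2.23. Of these Il6 alone had 24 h control libraries, at 77.0, 47.1 and 28.0. No error can be given for the 24 h values, so whether they differ from those at 12 h was not tested.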

How the data were processed

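RNA sequencing values of 12 libraries in 4 groups of 3 were used, with 6 libraries in the 24 h comparison. The submitters' processing notes name bcl2fastq, HISAT2 2.2.1, edgeR 3.3.3 and GRCm38. How reads were counted, the annotation, the strand setting and any filter are not stated in those notes or the labels. No header names the unit of the deposited library values; judged by the values they are a signal, normalized counts that the authors scaled within a table. The deposited tables also hold log2 fold changes and p-values, per the file headers, and the 5-gene table a fold change whose scale no header names. Tables with library values hold no gene with an adjusted p of 0.05 or more, or with a log2 fold change between -1 and 1.

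Each time table was multiplied by the median ratio of its 12 h libraries to those of the 12 h IFNβ table, over values above 5. Single libraries gave factors of 0.884 to 0.911 and 1.11 to 1.13. For the 78 genes also in the 12 h table, rescaled values over that table's had a median of 1.00, with the central 95% of 431 values between 0.973 and 1.01. Gene symbols matched RefSeq for 218 genes by symbol and 6 by synonym.

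Limma 3.58.1 in R 4.3.3 was fitted with a variance trend on log2(value + 1), two-sided, with Benjamini-Hochberg adjustment over the 224 genes. It takes normalized values and no raw counts. On simulated counts it recovered 90% of the smaller and 100% of the larger changes at 24 h, with 1 false call. For the interaction it recovered 53.3% and 96.7%, with 0 false calls. The simulation had the same dispersion for every gene and no pairing, rescaling or choice of genes by time. It cannot speak to those features. Exact permutation of 3 against 3 libraries cannot go below p = 0.1, so no such test was made. Libraries of the same replicate number in the labels deviated the same way in each of 18 pairs. The correlation r of deviations across genes, which are no independent replicates, was 0.194 to 0.512, and -0.423 to 0.108 for different numbers. The number may therefore pair libraries. Standard errors, intervals, adjusted p-values and calls leave this pairing out unless the block is named. A fit with the number as a block is given for the counts of genes and for named genes whose 24 h call it changes. For the interaction of single genes it is given in part. The other alternatives were pseudocount, filter, scaling, spread, threshold, and each library left out.

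The members and the gene lists were chosen with earlier results of these data known. Named genes were the 10 with the largest difference in each direction, among called genes that have a gene name, libraries without overlap and a level outside the lowest 25%. To these were added up to 4 per list with the smallest p, called or not, the 6 of highest level and the genes of the 5-gene table. Further symbols are list members, genes of the interaction or, where said, chosen after their values were seen. Python 3.11.15, numpy 2.4.6, pandas 2.3.3 and matplotlib 3.10.9 were used.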

Additional observations from a re-analysis of the deposited data

Results flagged for a closer look

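The effect of IFNβ differed between 12 h and 24 h for 17 genes by the limma interaction over 12 libraries, adjusted over the 224 genes. Values are the 24 h difference minus the 12 h difference on the log2(normalized count + 1) scale.

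It was lower at 24 h for Aplnr (-3.19), Gpr55 (-2.90), Ifit1bl1 (-2.74), Nr4a2 (-2.25), Lysmd2 (-3.45) and Hap1 (-3.44), and higher for Arg1 (5.16). These 7 genes moved in opposite directions with time in the arms, which is how they came to be chosen with a difference of this sign. The controls of Hap1 were listed at 0 at 12 h, so its value depends on the pseudocount. Gpr55, a lipid-responsive receptor, stood at 4.54 ± 0.28 in controls and 39.4 ± 6.31 with IFNβ at 12 h, and at 15.7 ± 2.32 and 15.3 ± 3.99 at 24 h. Lysmd2 was low in every group, with a highest group mean of 24.0 ± 9.99.

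Among genes that moved the same way in both arms, the IFNβ difference was lower at 24 h for Gbgt1 (-2.40), Stra6l (-2.40), Gprc5b (-1.92), Cd200 (-1.83), Plpp3 (-1.76) and Bhlhe41 (-1.62). It was higher at 24 h for Timp2 (0.92), Rnase4 (1.63), Gas6 (2.20) and Folr2 (3.25). Folr2 stood at 4.54 ± 0.942 and 2.81 ± 1.31 at 12 h.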

How the results depend on the processing

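Single-gene differences at 24 h under the alternatives were tallied only for the 65 genes named by the rule above. These include the 10 largest differences in each direction without overlap, so the tally does not describe the other genes. In it 1091 values kept their direction and side of the threshold, 37 were no longer past it, 30 came past it and 10 changed sign. Some alternatives changed little: scaling on values above 50 moved the log2 shift between the arms by -4.4e-05. Single genes given below for 24 h are also from these 65. Adjusted over the 15822 genes implied as tested, 30 genes passed at 24 h (15 higher, 15 lower), 22 at 12 h and 3 for the interaction, since more genes enter the adjustment. With the replicate block the counts were 146, 130 and 45. The block brought C1qa, C1qc, Dusp4, Ermap, Klf4, Naip1, Slc4a1 and Stfa2l1 past the threshold at 24 h among named genes and took none below it. Without rescaling 35 genes were higher and 95 lower at 24 h (median -0.62), and 33 and 64 at 12 h; Anpep (-0.0649), Blnk (-0.0884), Cdkn1c (-0.0387) and Mertk (-0.0512) changed sign, Atf5, Cd4, Ctsk and Phgdh lost their call and C1qa, Ccr9, Ermap, Fcrls, Gpnmb, Klf4 and Stfa2l1 gained one. With no variance trend Atf5 lost its call and Naip1 gained one at 24 h, and the interactions of Arg1 and Timp2 lost theirs. With each 24 h library centred on its median 56 were higher and 43 lower, and Anpep, C1qb, C1qc and Naip1 came past the threshold. Leaving out each replicate in turn gave 90 to 107 calls at 24 h, 66 to 78 at 12 h and 14 to 23 for the interaction. Signs also turned when 1 library was left out: Ccl24 ranged from -0.74 to 0.61 (positive without control replicate 3 or IFNβ replicate 1), Stfa2 from -0.51 to 0.16 (without IFNβ replicate 1), Stfa3 from -0.86 to 0.27 (without IFNβ replicate 1 or control replicate 2) and Jchain from -0.82 to 0.0759 (without control replicate 2). The total depth of the libraries is unknown, so no limit from counting can be given.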
